A study of Mus musculus with 25 samples.

Results

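Leptotene and zygotene spermatocytes were taken from single-cell libraries of whole mouse testis as the barcodes that carried transcripts of early meiotic prophase. A barcode was a member when it held at least 300 UMIs (unique molecular identifiers, each counting 1 captured transcript), at least 2 UMIs of Sycp3 and at least 2 UMIs summed over Prdm9, Dmc1, Rad51ap2, Meiob, Zcwpw1, 4930447C04Rik and Esco2. These 8 genes also had to make up at least 0.3% of the UMIs of the barcode. Of the 47450 barcodes in the 21 whole-testis libraries, 40295 held 300 UMIs or more and 282 met the rule, out of 48642 barcodes in all 25 libraries. Because members were chosen by their measured counts of these 8 genes, the genes are described and not tested.

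Drop-seq captures the transcripts of a cell on a bead inside a droplet, tags them with the barcode of the bead and counts their 3′ ends. WT were C57BL/6 males between 3 months 1 day and 9 months 14 days of age (11 libraries). Mlh3-/- males, which lack a mismatch repair protein needed for crossovers, were on a B6;129 background and aged between 2 months 21 days and 8 months 30 days (6 libraries). Cul4a-/- males, which lack a scaffold of ubiquitin ligases, were also B6;129 and aged 1 month 18 days and 1 month 21 days (2 libraries). CNP males carried the CNP eGFP BAC TRAP transgene on C57BL/6 and were aged 2 months 14 days and 2 months 16 days (2 libraries). For Cul4a and CNP the study's own list of animals gives these ages the other way round, and the labels are followed here. Strain background went with the genotype for Mlh3 and Cul4a, so that both cannot be told apart. The Cul4a and CNP males were all younger than any WT male, so that age cannot be told apart from genotype there. Enzymes were used to dissociate WT1 and WT2, the other testes were dissociated mechanically, and WT1, WT3, Mlh3_1 and Mlh3_2 were sequenced on a MiSeq and the rest on a HiSeq. Sorted spermatogonia, used as a reference, were GFP+ cells of 7-day-old Pouf51-EGFP males, pooled from 5 littermates and dissociated with enzymes (1 library, C57BL/6 in the labels and B6;CBA in the study's methods, which write Pou5f1-EGFP). The other 3 sorted libraries came from WT males of 2 months 21 days. Every whole-testis suspension held all cells of the testis, and barcodes with 2 cells were not removed.

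Retinoic acid switches on Stra8 in preleptotene, around the last DNA replication, and meiotic prophase follows with chromosomes built around a cohesin axis. In leptotene, PRDM9 marks sites where the SPO11 complex cuts DNA, and in zygotene DMC1 leads the broken ends into the partner chromosome while the synaptonemal complex begins to zip both together. In pachytene, pairing is complete, the X and Y chromosomes are silenced, and genes of the pachytene piRNA pathway and of later sperm are switched on. Few cells of an adult testis are in the early stages at any time.

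The members held 1043347 UMIs, with a median of 2110 UMIs (357 to 27514) and 1379.5 genes per barcode. WT gave 49 members, Mlh3 141, Cul4a 86 and CNP 6. Between 1 and 10 came from each WT library, 3 to 43 from each Mlh3 library, 51 and 35 from the Cul4a libraries and 4 and 2 from the CNP libraries. Only 10 libraries held at least 5 members, namely WT7, WT8, WT11, Mlh3_2 to Mlh3_6, Cul4a_1 and Cul4a_2, and values per library below are from these. The tables of the 21 libraries held between 357235 and 9745302 UMIs each. Any cell barcode sequence was shared by 204 of the 300 pairs of all 25 libraries, at most by 27 barcodes in a pair and by 2 in the median pair. The disrupted genes did not check the genotypes, because only 3′ ends were counted and the deleted part is not given in the sources used here. Mlh3 was counted at 30.6 CPM (UMIs per 1000000 UMIs; here 17 UMIs) in Mlh3 members and 174 CPM (17 UMIs) in WT members, but at 46.8 and 50.8 CPM in all other barcodes of these strains. Cul4a was counted at 167 CPM in Cul4a members and 133 CPM in WT members, and at 49.4 and 34.0 CPM in their other barcodes. Cnp had 0 UMIs in CNP members and 1 in WT members. Groups are therefore named by their labels throughout.

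Sycp3, which encodes the lateral element of the synaptonemal complex, took 3326 CPM of the members (lowest library 2758, median 3365, highest 3989). The 7 other genes of the rule were sparser and less even. 4930447C04Rik, a reading frame known as Six6os1 that encodes a central element protein of the complex, lay between 526 and 1330 CPM across libraries and was detected in 223 of 282 members. Zcwpw1, a reader of PRDM9-marked histones, ranged from 238 to 1503 CPM and was detected in 165. Meiob (126 members), Esco2 (110), Rad51ap2 (98) and Dmc1 (79) followed, and Prdm9 was found in 33 members, with 0 CPM in WT8 and 289 CPM in WT11. Meiob and Dmc1 act on the broken DNA ends and Esco2 acetylates cohesin. A typical member thus met the rule with a few of the genes, 3 different genes in 88 members, 2 in 43 and all 8 in 4. Together the 8 genes took 0.518% of member UMIs, 0.0455% of the UMIs of all other barcodes and 0.0128% in spermatid-gated barcodes. Spermatids should lack these transcripts, and the source of the latter was not tested. Spermatid-gated barcodes were those outside both other gates with 5% or more of their UMIs from 9 spermatid genes such as Prm1 and Tnp1.

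The thresholds cut through a continuum. The share taken by the 8 genes was 0.3 to 0.4% in 91 members, and 175 barcodes that met the other conditions lay just outside at 0.2 to 0.3%. Exactly 2 Sycp3 UMIs were held by 41 members, against 56 barcodes excluded for holding 1, and exactly 2 UMIs of the other genes by 83 members, against 154 excluded with 1.

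Most members also met thresholds on genes used here to gate pachytene. For comparison, a barcode was pachytene-gated when it was no member, held 300 UMIs and 2 of Sycp3, and held at least 3 UMIs of Piwil1, Tdrd1, Tdrd5, Tdrd9, Mael, Pld6, Mybl1, Hist1h1t, Ccna1 and Ccnb3, all 11 genes at 0.3% or more of its UMIs. There were 1720 such barcodes, and 182 of the 282 members met the same thresholds on pachytene genes. Those 182 held a median of 3449 UMIs and the other 100 members 1309, so that meeting both sets of thresholds went with depth. Sycp3 was alike in both, at 3330 and 3298 CPM, whereas Prdm9 was counted at 44.6 CPM where pachytene thresholds were met and 192 CPM where they were not. Dmc1 was at 123 and 295 CPM and Zcwpw1 at 315 and 802 CPM, but Meiob at 276 and 247 CPM. These are genes of the rule, which asks the same number of UMIs at any depth. Shallow members therefore need higher CPM of them to be included, and the contrast is in part set by the rule. The 10 pachytene genes are not all particular to that stage, since 3 of them were higher in members than in pachytene-gated barcodes. Of the 182 members that met both sets of thresholds, 55 had X-linked UMIs at 1% or more of autosomal UMIs and 127 less. The label is therefore used here as the name of the rule, which takes in barcodes that also meet the pachytene thresholds.

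Transcripts of other cell types were present in members. The 9 spermatid genes took 0.624% of their UMIs and were detected in 141 members, 63 of them at over 1% of the UMIs of the barcode. Without Cul4a_1 they took 0.283%, with 40 members over 1%. The 9 Sertoli genes (Clu, Aard, Cst9 and others) took 0.0979%, and the 7 Leydig genes (Insl3, Cyp17a1, Ptgds and others) 0.0836%, with 4 and 11 members above 1%. Without Mlh3_3 the Leydig genes were at 0.0308%, with 2 members above 1%. Without Mlh3_5 the Sertoli genes were at 0.0967%, also with 2 members above 1%. Macrophage, telocyte and red blood cell genes stayed at or below 0.00297%. The 13 spermatogonial genes took 0.0310% of member UMIs against 0.359% in the library of sorted spermatogonia, and Nanos3 and Lin28a were at 0 in members. Whether these came from free RNA, from 2 cells in a droplet or from the cell itself was not tested.

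Outside the rule, levels were set against all other barcodes of the same libraries. Among 13475 genes with at least 100 UMIs, ranked by the mean log2 ratio per library with 20 CPM added, the median was -0.12 and 551 genes (4.09%) were higher in members in each of the 10 libraries. This ranking is a description without a test. Dazl, an RNA-binding protein that licenses germ cells for meiosis, led with a log2 ratio of 3.51 ± 1.19 (SD, n = 10), at 1781 CPM in members and 91.4 CPM in the rest. Tex101 and Ly6k, germ cell surface proteins of the Ly6 family, were at log2 ratios of 3.40 and 2.53, and Gml and Hemt1 at 2.99 and 2.71. Sycp1, the transverse filament of the synaptonemal complex, had 2.89. Hells, a chromatin remodeller, had 2.43 and Mov10l1, a helicase of piRNA processing, was at 632 against 61.9 CPM. Prss50, a testis protease switched on at meiotic entry, had 2.80. Gm364 (2.79) lay on the X chromosome. Genes of nucleoli and RNA handling, Ncl (2.55), Esf1 (2.44) and Ssb (2.26), were also among the first 20. At the other end were genes at higher levels in pachytene-gated or spermatid-gated barcodes, among them Camk2n1 at -2.80, Nme8 at -2.52 and Prss21 at -2.47.

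The X chromosome marked how members differed from pachytene-gated barcodes and from each other. X-linked UMIs, counted outside both gates, were 1.06% ± 0.482 of autosomal UMIs in members and 0.285% ± 0.318 in pachytene-gated barcodes (SD over the 10 libraries). In WT7, WT8 and WT11 the members were at 0.759%, 0.579% and 1.93%, and the pachytene-gated barcodes at 0.226%, 0.175% and 0.160%. In Mlh3_2 to Mlh3_6 the members were at 1.50%, 1.68%, 0.690%, 0.535% and 1.00%, and the pachytene-gated barcodes at 0.390%, 1.16%, 0.129%, 0.106% and 0.0974%. In Cul4a_1 and Cul4a_2 the members were at 1.05% and 0.915%, and the pachytene-gated barcodes at 0.207% and 0.202%. Members were higher in 10 of 10 libraries, by 0.778 percentage points on average (exact sign-flip permutation test, two-sided, p = 0.00195, the smallest that 10 pairs allow). The 3 WT libraries alone (p = 0.25, exact) and the 5 Mlh3 libraries alone (p = 0.0625, exact) are too few to reach 0.05, and each of these libraries went the same way. Mlh3_3 stood apart, with pachytene-gated barcodes at 1.16% where the other 9 libraries were below 0.4%. The mean difference without it was 0.808 percentage points. In members outside the pachytene thresholds the X chromosome gave 2.08% ± 0.500. Pooled over whole-testis libraries, X-linked UMIs were 1.01% in members, 1.12% in all other barcodes and 1.95% in spermatid-gated barcodes. The level of members was thus not particular to them outside the comparison with pachytene.

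**Figure D1:**
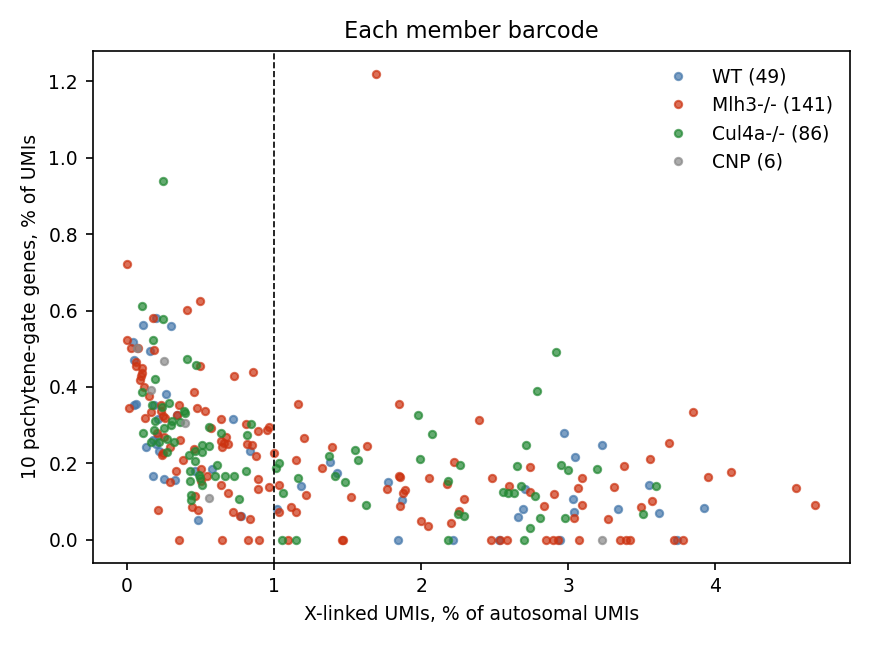
X-linked UMIs as a percent of autosomal UMIs for each member (horizontal axis) against the percent of its UMIs from the 10 pachytene genes (vertical axis), each point a member coloured by strain and the dashed line at 1%. X-linked values reach 4.68%, and 127 of the 153 members left of the line met the pachytene thresholds, against 55 of the 129 right of it.

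Across single members the X-linked percent ran from 0 to 4.68% with a median of 0.833%. Split at 1%, 129 members lay at or above and 153 below, and 34 of all 282 lay between 0.8 and 1.2%. This split is a range and no cell type, and values across it are a description. Members at 1% or more had a median of 1740 UMIs and those below 3008. Of the first 74 and of the second 26 were outside the pachytene thresholds.

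Several genes of meiotic entry and break repair were higher on the side of high X. Genes of the rule are given there as a description only. Pooled over members, Stra8 was at 471 CPM (158 UMIs) where the X was at 1% or more and 28.3 CPM (20 UMIs) where it was below, a 16.6-fold difference that was 9.38-fold in Mlh3 members alone. Prdm9 was at 179 and 11.3 CPM, 15.8-fold apart (8.12-fold in Mlh3). Tex15, a protein needed to load recombinases on breaks, was 7.40-fold higher (4.72-fold in Mlh3). Ugt8a and Gal3st1, enzymes of the seminolipid of germ cell membranes, were 13.2-fold and 8.08-fold higher. Gm960, known as Top6bl and the partner of SPO11, was 8.85-fold higher and Brip1, a helicase, 7.53-fold (4.87-fold in Mlh3). X-linked Tex11 (16.4-fold) and Rhox13 (11.7-fold) were on the same side, but belong to the measure that made the split. Ccnb3, an X-linked cyclin that had been placed among the pachytene genes, had 61 UMIs at high X and 1 at low X, unlike Piwil1 of the same gate. Dmc1, Zcwpw1 and Esco2 were 3.01-fold, 3.03-fold and 3.29-fold higher (1.89-fold, 2.42-fold and 3.89-fold in Mlh3). Break repair genes lay on both sides, however. The sum of the strand exchange list had a ratio of high to low X of 1.09, with Rpa1 at 0.456, Psmc3ip at 0.477 and Spata22 at 0.557. Mcmdc2 (0.593), Swi5 (0.707), Rpa2 (0.734) and Hsf2bp (0.775) were also lower at high X. Spo11 was at 0.828, though its list of break formation was at 2.00, and Meiob of the rule was at 0.812.

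Most genes of the synaptonemal complex were near equal across the split. Sycp3 had a ratio of high to low X of 1.08, Sycp1 0.899, Sycp2 0.918, Syce1 0.923, Syce3 1.02 and Tex12 1.07, and the 6 listed genes of the complex together 0.970. 4930447C04Rik of the rule, which also belongs to the central element, was at 1.61 (1.57 in Mlh3). Syce2 was at 673 and 326 CPM, 2.06-fold apart, but at a ratio of 0.974 in Mlh3 members alone, where Syce3 was at 0.581 (26 against 121 UMIs) and Tex12 at 0.850. The cohesin genes together were 1.84-fold higher at high X (1.62-fold in Mlh3). On the side of low X were genes of the pachytene piRNA pathway, with ratios of 0.220 for Piwil1, 0.159 for Tdrd1, 0.251 for Tdrd5 and 0.158 for Pld6. Tdrd9 was at 0.349, and Mael and Mybl1 of the same gate were nearer to equal, at 0.608 and 0.654. Ccna1 of that gate lay on the side of high X like Ccnb3, at 3.31 (2.08 without Mlh3_3). The sum of the gate was at 0.437. The crossover genes lay on both sides, with a ratio of 0.815 for their sum. Mlh3 was at a ratio of 0.151 (5 against 70 UMIs), and Cntd1 and Ccnb1ip1, which promote crossovers, were at 0.234 and 0.310 (0.143 and 0.164 in Mlh3). Brip1 was on the other side, as was AI481877 at 2.21 (1.98 in Mlh3). Msh5 was at 2.28 and Msh4, its partner, at 1.05, but in Mlh3 members alone at 1.50 and 1.43. Hfm1 was at 1.15 (1.07 in Mlh3). Ccdc155, the nuclear envelope anchor of telomeres also called Kash5, was at 0.230 (0.0475 in Mlh3). Replication genes were mixed. Rrm2 had 31 UMIs at high X and 3 at low X, whereas Dut was at a ratio of 0.310 and Pcna at 0.640. Single libraries moved several of these ratios. Without 1 library Stra8 ran from 13.6 to 51.6, Tex15 from 6.49 to 19.3, Gm960 from 5.70 to 11.2, Brip1 from 4.51 to 10.6, Gal3st1 from 4.84 to 9.54 and Rhox13 from 9.84 to 19.6. Mlh3 ran from 0.0972 to 0.252 and Ccdc155 from 0.0629 to 0.281, so that none of these 8 genes changed side.

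Other transcripts moved with the split too. Leydig genes were 5.95-fold (3.04-fold without Mlh3_3), Sertoli genes 2.92-fold and the 9 spermatid genes 4.48-fold (2.14-fold without Cul4a_1) higher at high X, and the libraries contributed unequally. In Mlh3_2 and Mlh3_3, both of 8 months 30 days, 83.3% and 79.3% of members were at 1% or more, against 29.4% to 34.9% in Mlh3_4 to Mlh3_6, 51.0% and 34.3% in the Cul4a libraries and 40.0% to 60.0% in WT7, WT8 and WT11. The part of these in the gene ratios was not tested.

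**Figure D2:**
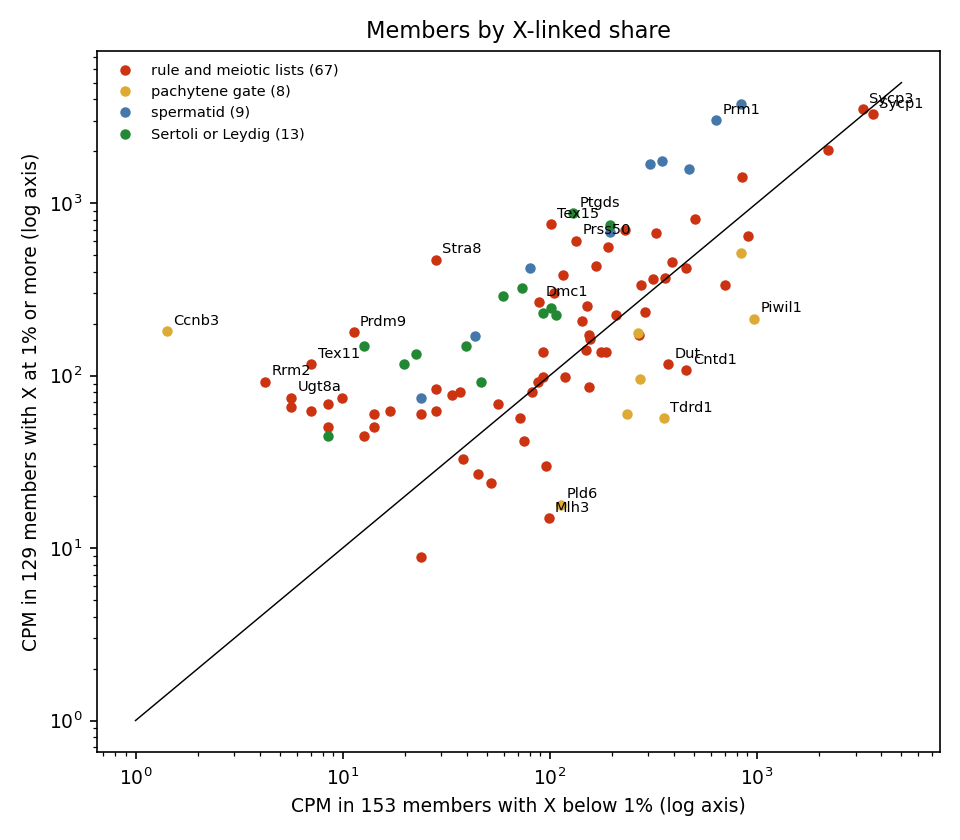
Pooled CPM of listed genes in the 153 members with X-linked UMIs below 1% of autosomal UMIs (horizontal, log axis) and in the 129 members at 1% or more (vertical, log axis), each point a gene with at least 20 UMIs in members, coloured by list, and the line marking equal levels. Stra8, Prdm9 and Tex15 lie far above the line, Sycp1 and Sycp3 on it, and Piwil1, Tdrd1 and Mlh3 below it.

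Genes of neither gate were then compared between members and pachytene-gated barcodes of the same 10 libraries by edgeR's quasi-likelihood test, with the library as block and Benjamini-Hochberg adjustment over all 12572 genes tested. At an adjusted p below 0.05, 5782 genes (46%) differed, 2088 (16.6%) higher and 3694 (29.4%) lower in members. In each of the 10 libraries 431 genes (3.43%) were higher and 867 (6.9%) lower. The split depends on the scaling. Of the calls 36.1% were higher under TMM, 53.9% under DESeq2 (4829 calls) and 59.7% with library totals (5902 calls). The median log2 difference of all genes was -0.17 with TMM and 0.26 with totals, and log2 differences are best read against these. Both classes were gated on counts of the same barcodes, so that genes expressed along with the gate genes differ by that choice. In simulated data of this design 25 of 129 calls (19.4%) were of unchanged genes. There only 197 of 12273 genes had been changed, so that the share of false calls among the 5782 cannot be read from it.

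Dazl had the strongest test of the named genes higher in members, at 1577 ± 532 CPM against 142 ± 85.3 (SD, n = 10), log2 difference 3.15 ± 0.15 (SE). Prss50 (5.43), Tex15 (3.79) and the X-linked Taf7l (4.55) and Prdx4 (3.53), a germ cell form of a transcription factor subunit and a peroxidase, were also higher in 10 of 10 libraries. Lower in 10 of 10 were Ccdc38 (log2 -3.08), Pabpc6 (-3.03), Ppp3r2 (-3.19), Mesp1 (-3.62) and 1700028J19Rik (-3.16). Ppp3r2 encodes the sperm form of a calcineurin subunit. The edgeR adjusted p-values of these 10 genes ran from 6.01e-99 (Dazl) to 5.02e-59 (Prdx4), and each kept its sign under DESeq2 and totals. Such p-values, here and for the same test below, rest on a spread shared over genes. They hardly measure the spread of each gene across 10 libraries and are best read as a ranking.

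The counts of each list below stand beside 16.6% of all genes higher and 29.4% lower. Genes of meiotic entry were higher in members, 5 of 6 tested (6 of 6 with totals) and none lower, with a median log2 difference of 4.01. Stra8, the trigger of meiosis, was at 185 ± 213 CPM against 8.45 ± 14.3 (log2 4.43, edgeR adjusted p = 2.8e-45). Its level in members was 299, 0 and 57.8 CPM in WT7, WT8 and WT11, and 733, 86.4, 58.6, 84.9 and 114 CPM in Mlh3_2 to Mlh3_6. The Cul4a libraries had 253 and 164 CPM. WT8 alone had no Stra8 in its 10 members, and Mlh3_2 was highest. Ythdc2, an RNA helicase that ends the mitotic programme, was higher in 10 of 10 libraries (log2 1.49). Gm4969, the symbol for Meiosin, the partner of STRA8, was too rare to be tested, with 16 UMIs in all members, 15 of them at high X. The list of meiotic entry took 0.0711% of member UMIs, but 0.0798% in the sorted spermatogonia (1 library, no test). Cohesin (0.266% against 0.176%), replication (0.233% against 0.132%) and break formation genes (0.0276% against 0.0222%) were also above members there. Strand exchange (0.269% against 0.346%), crossover (0.0423% against 0.109%) and synaptonemal complex genes (0.206% against 0.714%) were below members.

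Promoter sequences are shown for some genes of the rule, of meiotic entry and of the synaptonemal complex and for Dazl. They were picked from windows that hold the motif CNCCTCAG, to let it be seen where it occurs. Letters like these are known from genes bound by STRA8 and MEIOSIN. Windows of 300 bases, from 250 before to 50 after each RefSeq start on GRCm38.p6, were searched on both strands. The motif was found in 7.94% of 32851 windows and at 2465 of 27025 genes (9.12%). It was found in 3 of 9 matched genes of meiotic entry, 2 of 6 of the rule, 3 of 6 of the synaptonemal complex, and in 2 of 5 of telomere tethering, 2 of 7 of the piRNA genes of both stages, 2 of 8 of crossover and 2 of 11 of replication. It was found in 1 of 6 of late metabolism, 1 of 7 of spermatids and 1 of 11 of spermatogonia, and in none of 7 of break formation, 12 of strand exchange, 6 of cohesin and 9 of the pachytene gate. These are descriptions of short windows, not of binding. A gene with several RefSeq starts was counted when any of its windows held the motif. For Prdm9 the window at chr17:15563282-15563581 held no match, and the window of another start is shown. The 100 bases before the start of Prdm9 (chr17:15564355-15564454, minus strand), Gm4969 (chr7:19118345-19118444, minus strand; Bhmg1 in RefSeq) and Ugt8a (chr3:125938653-125938752, minus strand) are written in the direction of transcription, with the motif or its reverse complement in capitals.
Prdm9: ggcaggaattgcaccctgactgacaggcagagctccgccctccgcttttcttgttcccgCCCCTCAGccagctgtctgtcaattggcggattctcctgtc
Gm4969: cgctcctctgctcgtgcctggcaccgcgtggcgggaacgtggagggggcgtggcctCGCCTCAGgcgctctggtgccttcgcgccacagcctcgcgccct
Ugt8a: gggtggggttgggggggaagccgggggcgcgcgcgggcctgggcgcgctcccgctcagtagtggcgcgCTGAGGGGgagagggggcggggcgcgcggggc

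Stretches of 30 bases show the motif within the windows of genes named above. They lie at chr17:15564322-15564351 for a further match of Prdm9, after its start, chr12:72917716-72917745 for 4930447C04Rik, chr17:50293587-50293616 for Dazl and chr3:102936051-102936080 for Sycp1 (all minus strand), and at chr9:110857789-110857818 for Prss50 (plus strand). The stretch of Prss50 begins 175 bases before its start. 4930447C04Rik held the reverse complement at 2 places.
Prdm9 site: cagcctcggaaCTCCTCAGagggacgaacg
4930447C04Rik site: CTGAGGAGaaagctgcgggtCTGAGGAGga
Dazl site: cgcgcagcccaCGCCTCAGtgactcggcga
Sycp1 site: ttccaggaggttCTGAGGGGaagctcacgg
Prss50 site: ttagaaattagCTGAGGCGaggcataggga

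Stra8 and Dmc1 held no match in these windows, which says only that the letters were not there.

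Of the cohesin genes, which hold sister chromatids together, 6 of 8 were higher in members and Stag3 was lower (log2 -0.43), with a change of sign to 0.02 under totals. Smc3 was at 343 ± 200 CPM against 48.4 ± 29.9 (log2 2.49, higher in 10 of 10 libraries), Rad21l, the meiotic kleisin, had a log2 difference of 5.16 on 25.3 CPM, and Smc1b one of 0.48 with 1186 ± 357 against 586 ± 132 CPM. For break formation 3 of 6 tested were higher and 1 lower. Gm960 (2.57), Atm, the kinase that limits breaks (1.94), and Mei1 (1.84) were the former, and Spo11 itself was at 127 ± 61.7 CPM in members and 166 ± 26.7 in pachytene-gated barcodes (-1.06).

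For strand exchange 8 of 15 genes were higher and 3 lower (11 and 2 with totals). Besides Tex15, the leading ones were Mcm8, a helicase of repair (3.27), and Mnd1, which assists DMC1 (3.12), at 70.9 ± 37.9 against 6.16 ± 6.74 CPM. Rpa1 was lower in 10 of 10 libraries, at 57.5 ± 43.5 against 151 ± 30.4 CPM (-2.11), while Rpa2, another subunit of the same single-strand binding complex, was higher in 9 of 10 (1.31). The crossover list had 8 of 11 genes higher and 1, Mlh3, lower (log2 -0.90, not called with totals). Mlh3 is the gene disrupted in 5 of these 10 libraries. Pooled over each strain it was at 30.6 CPM in members and 60.5 CPM in pachytene-gated barcodes of Mlh3, at 104 and 121 CPM in Cul4a, and at 174 and 149 CPM in WT. Tex11 (4.48), Brip1 (2.96) and Msh4 (1.62) led the higher ones. Hfm1, a helicase of crossover intermediates, was at 350 ± 149 against 123 ± 59.6 CPM.

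Of the 6 synaptonemal complex genes 4 were higher and Syce1 lower. Sycp1 was at 3416 ± 986 CPM in members and 757 ± 347 in pachytene-gated barcodes (log2 1.78, edgeR adjusted p = 4.4e-38), and Syce2, Tex12 and Syce3 were also higher in 10 of 10 libraries (1.78, 1.47 and 1.02). Syce1 was at 527 ± 164 against 808 ± 192 CPM (-1.19) and stayed lower with totals (-0.73). Sycp2 was not called (0.29). Telomere tethering had 4 genes tested, with Sun1 higher (0.57) and Spdya lower (-0.83), a lower share near that of all genes.

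Replication genes were higher for 7 of 13 tested, chiefly the helicase subunits Mcm5 (2.62), Mcm4 (2.38) and Mcm3 (2.27) and the fork protein Tipin (3.15, 10 of 10 libraries), whereas Rrm1 (-1.20) and Dut (-0.46) were lower, the latter not with totals. Spermatogonial genes were higher for 6 of 9 tested. Rhox13 (4.74) and Sohlh2 (3.45), a factor of differentiating spermatogonia, led these, and Kit was not called. Of the piRNA genes used at both stages, 4 of 8 were higher, Tex19.1 (1.74), Mov10l1 (1.66), Asz1 and Piwil2, and 1 lower, Exd1 (-0.78). All 8 genes of late meiotic and spermatid metabolism were lower (7 with totals, Calm2 turning to 0.09), among them Ldhc, the sperm lactate dehydrogenase, at 2939 ± 890 against 7796 ± 2494 CPM. Ybx3 and Lyar were lower by 2.02 and by 2.00 on the log2 scale.

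Of the markers of other cells, 7 of 8 Sertoli genes and 6 of 9 spermatid genes tested were higher in members than in pachytene-gated barcodes, against 16.6% of all genes, and 1 of 7 Leydig genes was. With totals 7 Sertoli, 8 spermatid and 3 Leydig genes were higher, and with DESeq2 6, 4 and 4. Clu was at 455 ± 586 against 273 ± 534 CPM (log2 0.75) and Prm2 at 1651 ± 1960 against 692 ± 739 CPM (0.60). Their part in the differences of the other genes was not tested.

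**Figure D3:**
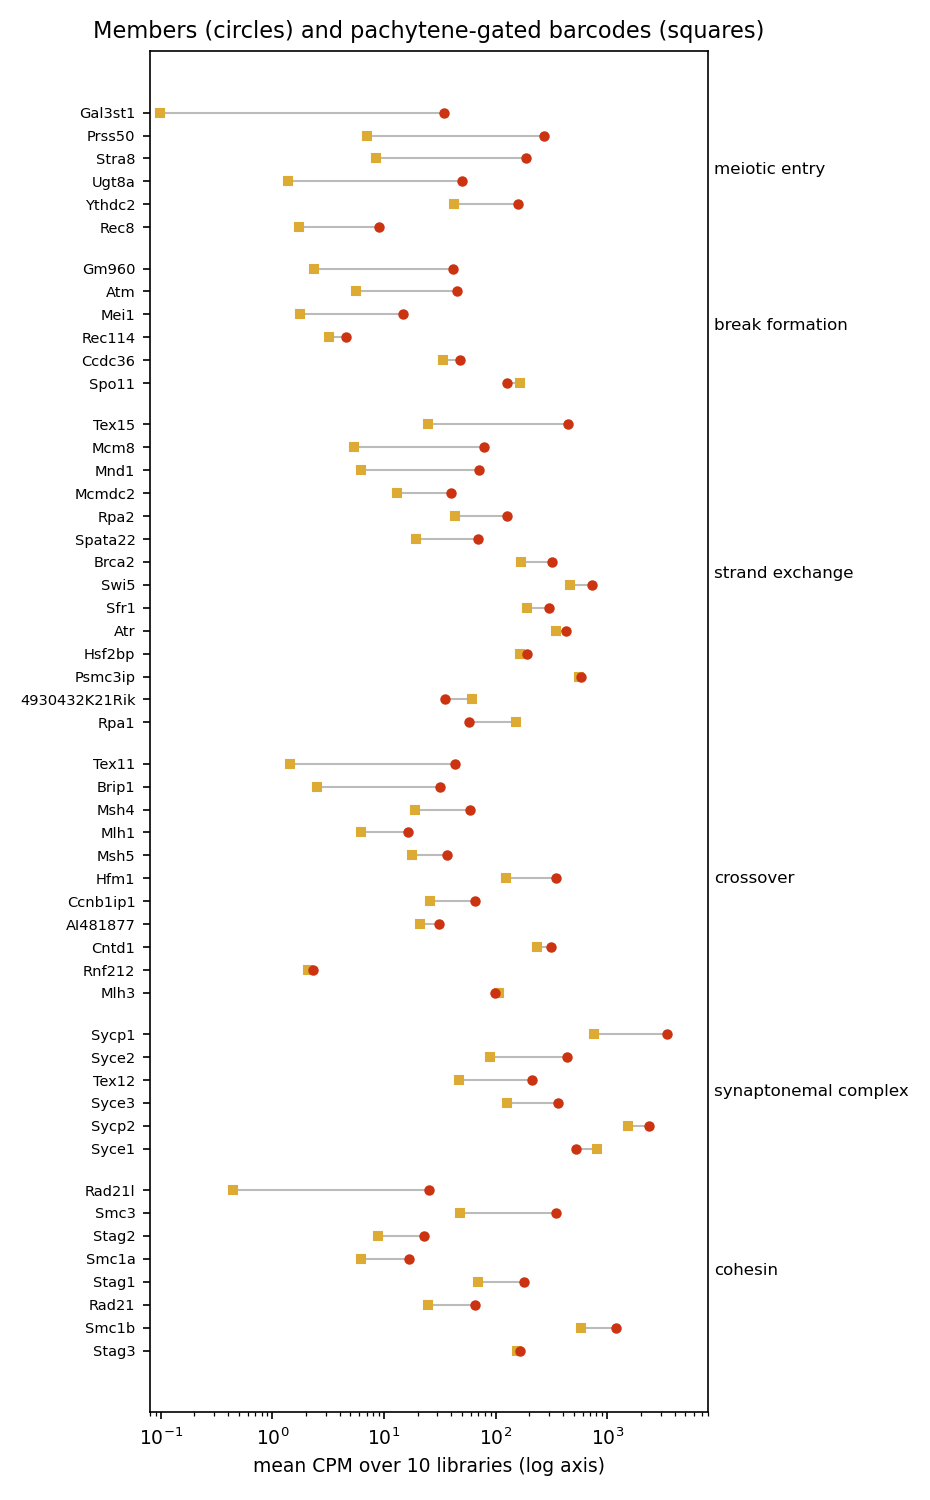
Mean CPM over 10 libraries (log axis) in members (circles) and in pachytene-gated barcodes (squares), with 1 row per gene shown of the lists for meiotic entry, break formation, strand exchange, crossover, synaptonemal complex and cohesin. The circles of Stra8, Prss50, Tex15 and Sycp1 lie to the right of their squares, and those of Spo11, Rpa1 and Syce1 to the left.

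Members were a larger share of the barcodes in Mlh3 than in WT. Of the barcodes with at least 300 UMIs, 0.261% ± 0.264 were members in WT (SD, n = 11 libraries, lowest 0.0335%, median 0.156%, highest 1.00%). In Mlh3 the share was 2.13% ± 1.41 (n = 6, lowest 0.589%, median 1.57%, highest 4.08%), and 5 of 6 libraries lay above every WT library. The difference of 1.86 percentage points had p = 0.000323 (exact permutation test of the libraries, two-sided, smallest possible 0.000162) and an adjusted p of 0.00097 over 3 comparisons. The study describes the WT libraries as separate animals, and for the other strains the sources used here do not say, so that p-values measure the spread between libraries, which may be technical. Mlh3_2 and Mlh3_3 have the same age, and counted as 1 sample they left a difference of 1.52 percentage points (exact p = 0.000916, adjusted 0.00275). In Cul4a the share was 1.51% ± 0.470 (1.84% and 1.18%), with p = 0.0256, the smallest that 2 against 11 libraries allow, and an exact adjusted p of 0.0385. In CNP it was 0.428% ± 0.211, with an exact adjusted p of 0.41. The highest WT value was that of WT1, where 1 of 100 barcodes was a member, and WT1 overlapped with the lowest Mlh3 library.

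**Figure D4:**
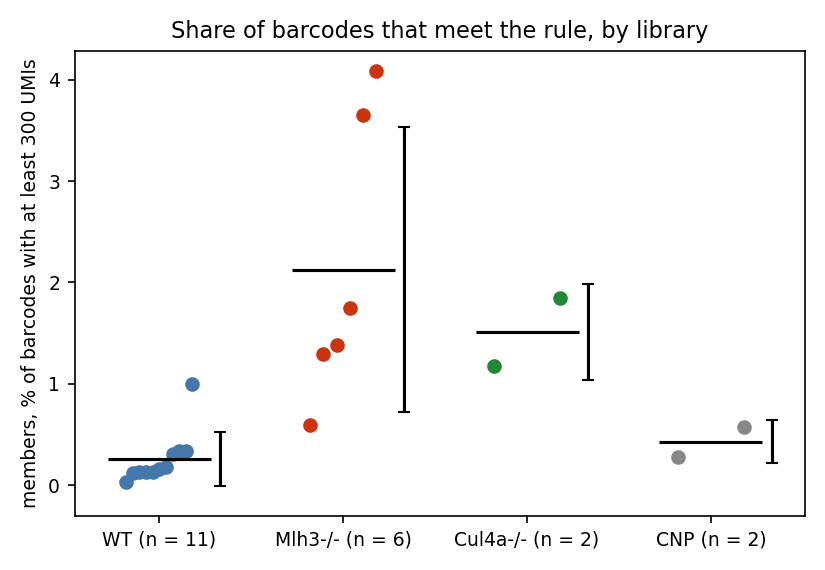
Members as a percent of barcodes with at least 300 UMIs, each point a library, with the mean (line) and SD (bar) of each strain. Of the 6 Mlh3 libraries 5 lie above every WT library, as do both Cul4a libraries.

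The rule needs 4 UMIs and so depends on depth, and shares depend on which other cells are present. With each barcode thinned to 500 UMIs the shares were 0.352% in Mlh3 and 0.0694% in WT (exact adjusted p = 0.0315), and thinned to 1000 UMIs 2.67% and 0.462% (exact adjusted p = 0.00242). Cul4a was not called after thinning to either depth (exact adjusted p = 0.192 at both). Barcodes too shallow for 1000 UMIs, 19012 in WT, 5395 in Mlh3, 1970 in Cul4a and 1067 in CNP, were left out. Mlh3 held no spermatid-gated barcode, where WT held 5845, so that the denominators were unlike. As a share of members and pachytene-gated barcodes together, in libraries with at least 10 of these, members were 16.2% ± 6.33 in Mlh3 (n = 6), 16.3% ± 0.446 in Cul4a (n = 2) and 8.73% ± 4.71 in WT (n = 9). On this scale Mlh3 against WT was not called (difference 7.51 percentage points, exact p = 0.0236, adjusted 0.0707), and after thinning to 1000 UMIs the difference was 9.62 percentage points over fewer libraries (n = 5 and 6, exact p = 0.385). Fewer other cells and more early spermatocytes cannot be told apart in such shares.

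X-linked UMIs of members did not separate the strains. They were 1.08% ± 0.496 of autosomal UMIs in Mlh3 (n = 5) and 1.09% ± 0.734 in WT (n = 3), with an exact permutation p of 0.857, and 0.983% ± 0.096 in Cul4a (n = 2, exact p = 1). The difference changes sign without WT11 (0.411 percentage points). Mitochondrial UMIs of members were 1.48%, 1.51% and 1.71% in WT7, WT8 and WT11 and 6.85%, 11%, 7.55%, 2.23% and 5.37% in Mlh3_2 to Mlh3_6. Each Mlh3 library was above each WT library, with means of 6.60% ± 3.19 and 1.57% ± 0.125 (exact permutation p = 0.0357, the smallest that 5 against 3 allow, adjusted 0.0714). With libraries of at least 2 members the means were 6.50% (n = 6) and 1.92% (n = 7), with an exact adjusted p of 0.0105. The Cul4a members were at 1.48% ± 0.139 (exact p = 0.6). Of the 141 Mlh3 members 41 held 10% or more mitochondrial UMIs, up to 40.5%, and 0 of the WT, Cul4a and CNP members did. In Mlh3_3 only 11 of 29 members were under 10%.

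Between Mlh3 and WT members, 200 of 6976 genes tested (2.87%) differed at an adjusted p below 0.05 by edgeR's quasi-likelihood test, 36 higher (0.516%) and 164 lower (2.35%). Members summed to 548541 UMIs in the 5 Mlh3 libraries and 62590 UMIs in the 3 WT libraries. Libraries of the groups did not overlap for 761 genes (10.9%) and for 31 of the 36 and 121 of the 164. No gene of the lists for meiotic entry, replication, break formation, strand exchange, crossover, synaptonemal complex, cohesin or telomeres was called, of 5, 12, 4, 15, 10, 6, 7 and 4 tested. With library totals Syce2 was, at 233 ± 109 CPM in Mlh3 and 615 ± 420 in WT (log2 -1.36, edgeR adjusted p = 0.0453), and with TMM it was not (log2 -1.02, adjusted p = 0.207). In simulated data of this design 28.7% of genes changed 4-fold were found, so differences of this size could go unseen in most genes. The median of all genes was 0.34 on the log2 scale with TMM and 0.00 with totals. Of the calls 18.0% were higher with TMM, 7.63% with totals (236 calls) and 5.33% with DESeq2 (169 calls), but 53.8% with at least 2 members per library (526 calls, 283 higher and 243 lower). The number of calls fell to 95 without WT11 and to 90 without Cul4a_1, whose libraries shared the fit, and was 251 without Mlh3_2 and Mlh3_3.

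The genes lower in Mlh3 members were those of spermatids. Prm2, a protamine that packs sperm DNA, was at 1843, 2458 and 4509 CPM in the members of WT7, WT8 and WT11 and at 0 in each of the 5 Mlh3 libraries, at least 517-fold lower against a floor of 3 UMIs over the group. Prm1 (at least 295-fold), Tnp2 (228-fold), Smcp (199-fold) and Tnp1 (158-fold) were likewise at 0 in Mlh3. Without Mlh3_6, which held the most UMIs, the bounds of these 5 genes were 285, 162, 125, 109 and 86.8. Of the 9 spermatid genes 8 were called lower. They took 0.935% of UMIs in WT members, 0 in Mlh3, 1.45% in Cul4a (0.913% without Cul4a_1) and 0.500% in CNP, against 3.77% in the other WT barcodes and 0.00041% in the other Mlh3 barcodes. Of the 164 lower genes 162 were higher in WT spermatid-gated barcodes than in WT members (98.8%, against 24.7% of all genes tested), and 123 were at 0 in each Mlh3 library. The 2 others, named after their values were seen, were Taf7l, at 665 ± 642 CPM in WT and 170 ± 141 in Mlh3 with overlapping libraries, and Tekt1, a microtubule protein, at 316 ± 152 and 69.4 ± 52.6 CPM. Pooled over WT, Tekt1 was at 359 CPM in members, but at 599 CPM in pachytene-gated and 604 CPM in all other barcodes.

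The number of genes called higher in Mlh3 members was less stable than that of lower ones. It moved from 36 to 9 with DESeq2 and 10 with filterByExpr, and to 283 with at least 2 members per library. Without WT7, WT8 or WT11 it was 10, 13 and 10. Among the genes higher in Mlh3 members, the mitochondrial rRNAs mt-Rnr1 and mt-Rnr2 were in front. mt-Rnr1 was at 149, 198 and 173 CPM in WT7, WT8 and WT11 and at 2586, 5896, 5258, 679 and 1873 CPM in Mlh3_2 to Mlh3_6 (log2 4.56, edgeR adjusted p = 8.9e-08), and mt-Rnr2 differed by 3.44. Yam1, a non-coding RNA, was at 1061 ± 562 CPM in Mlh3 and 120 ± 97.4 in WT (3.52). Lcn2, an iron-binding secreted protein, and Gstm1, a glutathione transferase, were at 0 in the 3 WT libraries and at least 10.8-fold higher in Mlh3, a bound that fell to 2.88-fold and 2.65-fold without Mlh3_3. Both were uneven, with 2397 and 2440 CPM in Mlh3_3 and 59.4 to 646 and 58.6 to 302 CPM in the other 4 libraries. Of the 36 higher genes 17, among them Lcn2 and Gstm1, were higher still in the other barcodes of Mlh3 than in its members (47.2%, against 37.3% of all genes tested). Mitochondrial genes were 4 of the 36. Of the 6 Leydig genes tested 3, Ptgds, Insl3 and Cyp17a1, were among the calls, but 0 were with DESeq2. The Leydig list took 0.145% of UMIs in Mlh3 members and 0.0113% in WT members, and 0.355% and 0.0156% in their other barcodes. Without Mlh3_3 it took 0.0488% in Mlh3 members. Insl3 and Cyp17a1 were at 0 in the 3 WT libraries, and the lower bounds of their folds fell from 4.64 and 5.29 to 2.10 and 1.65 without Mlh3_3.

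The rest, which were not mitochondrial and were not higher in other Mlh3 barcodes, numbered 18 and are named after their values were seen. Top2b, a DNA topoisomerase, was at 49.8, 39.7 and 57.8 CPM in WT and at 302, 173, 264, 238 and 328 CPM in Mlh3 (log2 2.74, edgeR adjusted p = 0.00539). Other barcodes had 46.6 CPM of it in Mlh3 and 4.52 CPM in WT. Pcm1, a centriolar satellite protein, was at 584 ± 224 in WT and 1540 ± 380 in Mlh3 (1.64). Kdm3a, a histone demethylase of the male germ line, was at 39.7 ± 68.7 and 290 ± 58.9 (2.91), but over all 49 WT and 141 Mlh3 members at 123 and 283 CPM. Phf3 was at 82.0 and 216 CPM on that count. Zfp318 (1.48), Hmgn1 (1.90), Phf3 (2.52), Cct6a (1.70) and Cul3 (1.65) were among the others. Several of these differences were not particular to members. In other barcodes of Mlh3 and WT, Pcm1 was at 856 and 307 CPM and Kdm3a at 217 and 81.8 CPM. Phf3 was at 101 and 38.2 CPM there and Zfp318 at 456 and 186 CPM. Of the 18 genes H3f3a went the other way there, at 96.9 and 105 CPM. Zfp318 was at 538 CPM in pachytene-gated barcodes of Mlh3, above 488 CPM in all Mlh3 members. Ddx50, H3f3a, Zfp281, Rest and Hmgn5 were at 0 in the 3 WT libraries, where 3 UMIs would be 47.9 CPM, and were at least 2.59-fold, 2.74-fold, 2.51-fold, 2.17-fold and 2.32-fold higher in Mlh3. Without WT8, where 3 UMIs weigh more, the bounds were 1.54, 1.64, 1.50, 1.29 and 1.39. Over all 49 WT members, however, Zfp281 and Rest were both at 61.5 CPM, against 119 and 104 CPM over all 141 Mlh3 members. Whether the strain differences of members were unlike those of pachytene-gated barcodes was tested as an interaction, and 0 of 11197 genes were called by edgeR (427 at an unadjusted p below 0.05). That design found 6.38% of 4-fold changes in simulated data.

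**Figure D5:**
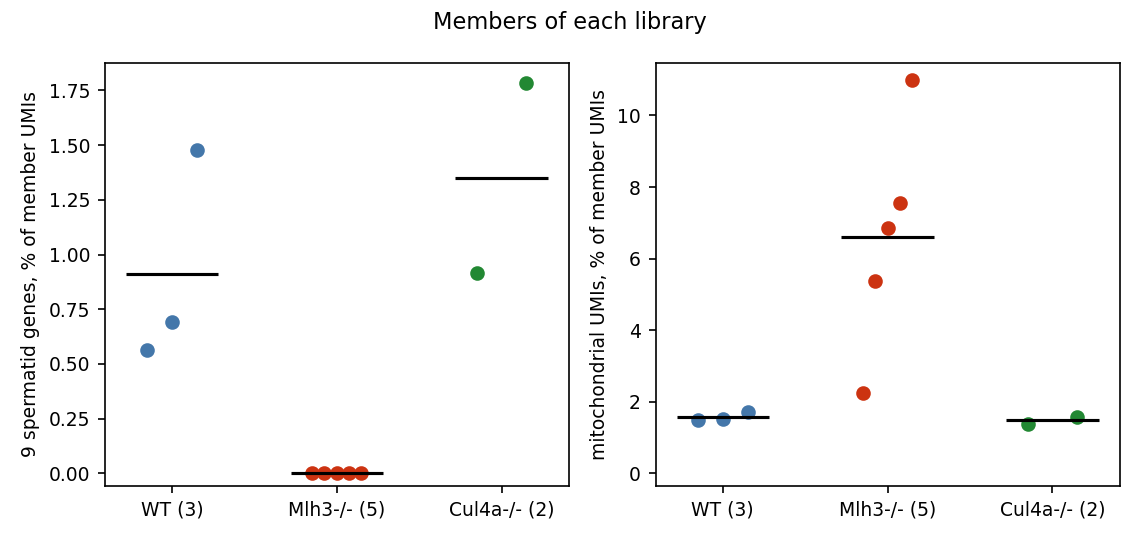
Percent of member UMIs from the 9 spermatid genes (left) and from mitochondrial genes (right), each point a library with at least 5 members and lines the mean of the strain. The spermatid genes are at 0 in each of the 5 Mlh3 libraries, and the mitochondrial percent of each Mlh3 library is above each WT and Cul4a library.

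Between Cul4a and WT members 2 of 6976 genes (0.0287%) were called by edgeR, both higher, and none by DESeq2 (192 at an unadjusted p below 0.05). Libraries of these groups did not overlap for 1650 genes (23.7%). Rps13-ps1, a processed pseudogene on chromosome 8 whose reads could also belong to its parent gene Rps13, was at 380 and 328 CPM in the Cul4a libraries and 0 in each of the other 8 libraries (edgeR adjusted p = 0.00121). It was not particular to members, with 355 CPM in pachytene-gated and 250 CPM in other barcodes of Cul4a. Pfn1, which binds actin monomers, was at 333 ± 6.7 CPM in Cul4a (n = 2) and 13.2 ± 22.9 in WT (n = 3, edgeR adjusted p = 0.00482), being listed at 0 in WT7 and WT11 and at 39.7 CPM in WT8. Over all 49 WT members it was at 61.5 CPM. Pachytene-gated barcodes had 348 CPM of Pfn1 in Cul4a and 64.4 in WT. Neither gene was called without WT7, without WT8 or without Cul4a_1, and Pfn1 was not called without WT11. No listed gene of meiosis was called in Cul4a. For CNP no library held 5 members, and with at least 2 members 0 of 7077 genes were called by edgeR (279 at an unadjusted p below 0.05).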

How the data were processed

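UMI counts per gene and barcode were deposited by the authors, as raw counts with no normalization. Per the labels, bcl2fastq and STAR 2.5.3a with mm10/GRCm38 were used on the reads. A further strain was not analysed here, and a listed gene is not reported by name. The members and gene lists were chosen with earlier results of these data known. Counts were summed over members of each library with at least 5 members, and genes with 20 UMIs or more were tested with edgeR 4.0.16 (limma 3.58.1, R 4.3.3) by the quasi-likelihood test with TMM scaling over WT, Mlh3 and Cul4a together, or over members and pachytene-gated barcodes with the library as block. DESeq2 1.42.0 was an alternative. Values per library were compared by exact permutation tests, two-sided (scipy 1.17.1, Python 3.11.15). CPM are UMIs per 1000000 UMIs of the summed barcodes. On simulated data 28.7%, 27.4% and 67.3% of 4-fold changes were found for Mlh3, Cul4a and members against pachytene-gated barcodes, with 0, 0 and 25 false calls among 30, 28 and 129.

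Named genes were those of the rule and lists, the 20 highest and 10 lowest ratios, and, in each test, up to 10 called genes with the smallest adjusted p whose libraries did not overlap, 5 in each direction. Doublets were not removed. Same-numbered libraries were compared as a block in an alternative. Depths are given as total UMIs per library, and floors of 3 UMIs cover counting error only.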

Additional observations from a re-analysis of the deposited data

Results flagged for a closer look

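Among 34 groups of libraries tested for a value far from the rest, 6 stood apart, all through Mlh3_3, and chance alone flags about 1 in 20 such groups. In its members Lcn2 was at 2397 CPM (59.4 to 646 in the other 4 Mlh3 libraries) and Gstm1 at 2440 CPM (58.6 to 302). Leydig genes took 0.625% of member UMIs (0.0178% to 0.0948%), Sertoli genes 0.376% (0.0807% to 0.121%) and macrophage genes 0.0216% (0 to 0.0017%). The 8 genes of the rule took 0.424% there and 0.509% to 0.539% in the others.

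In libraries outside the comparisons, 14 of 292 barcodes of the sorted spermatogonia of 7-day-old mice met the rule. None of the barcodes of the other 3 sorted libraries did.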

How the results depend on the processing

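For the 22 genes named by their tests, 450 of 478 pairs of a gene and an alternative kept their direction and call, 28 kept the direction only and 0 reversed. Of 127 listed genes tested against pachytene-gated barcodes, 12 changed sign with totals, of which Stag3 and Calm2 were called with TMM and 4 others with totals. The number of genes called for Mlh3 against WT members moved from 200 to 92 with filterByExpr, 27 outside the pachytene thresholds and 526 with at least 2 members per library, and lay between 90 and 214 without 1 library. For Cul4a it moved from 2 to 0 with DESeq2, with at least 10 members, outside the pachytene thresholds and at X-linked values of 1% or more, and to 4 without a filter, 5 under 10% mitochondrial UMIs, 10 with at least 2 members and 9 without both 8-month Mlh3 libraries (0 to 4 without 1 library). Against pachytene-gated barcodes 677 genes were called in WT libraries only and 3234 in Mlh3 libraries only (4721 to 6101 without 1 library). The interaction gave 0 calls and 0 to 1 without 1 library.

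The share of members in Mlh3 exceeded that in WT by 1.47 to 2.17 percentage points without 1 library, 4.04 under 10% mitochondrial UMIs, 1.08 with 3 UMIs required and 0.283 thinned to 500 UMIs. It was not called in MiSeq libraries (1.78), nor as a share of barcodes in either gate (7.51, and 9.62 thinned to 1000 UMIs). For Cul4a the difference was 0.919 to 1.58 without 1 library. It was not called when thinned to 500 (0.175) or 1000 UMIs (0.663), with 3 UMIs required (0.950), in HiSeq mechanical libraries (1.32), as a share of barcodes in either gate (7.56, thinned 8.39) or for members with X-linked values of 1% or more (0.500). For CNP it was 0.0180 to 0.316 without 1 library, and it reversed with 3 UMIs required (-0.0400), as a share of either gate thinned to 1000 UMIs (-13.8) and at X-linked values of 1% or more (-0.100). X-linked values of members against pachytene-gated barcodes differed by 0.903 in WT only and 0.704 in Mlh3 only (0.668 to 0.820 without 1 library). Mlh3 against WT ran from -0.265 to 0.411 without 1 library and was 0.122 with at least 2 members, and Cul4a from -0.363 to 0.314. Mitochondrial differences were 4.58 with at least 2 members for Mlh3 (3.93 to 6.12 without 1 library), and for Cul4a 0.0199 with 3 UMIs required and -0.183 to 0.0135 without 1 library. The cause of these moves was not tested.

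The labels name no animal, litter or day shared by libraries of the same number. Deviations of same-numbered Mlh3 and WT libraries from their group means correlated between -0.291 and 0.202 over 6818 genes, and 1 of 6 Mlh3 libraries correlated best with its own number, so that the numbers do not pair them. For Cul4a the values were -0.173 and 0.311 and for CNP 0.298 and -0.257, with 2 of 2 libraries of each closest to their own number. Deviations of 2 libraries from their mean are mirror images, so that the second match follows from the first. These values therefore cannot show whether the numbers pair the libraries of Cul4a or CNP. With the replicate number as block the differences in share were 1.86 for Mlh3 (exact p = 0.0625), 0.921 for Cul4a and -0.163 for CNP. With at least 2 members per library the block gave 9 called genes for Mlh3 and 0 for Cul4a, an X-linked difference of -0.0484 and a mitochondrial one of 4.06. With at least 5 members the block could not be fitted, since WT7, WT8 and WT11 share no number with the other strains, and CNP could not be tested. Alternatives beginning from 2 members, either gate, MiSeq, X-linked values, the 8-month libraries (left out or counted as 1), TMMwsp and totals were chosen after seeing the data. Depth limits the tests of WT members, whose 3 libraries summed to 62590 UMIs, and those of CNP, whose 6 members held 6798.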
